A study of Homo sapiens with 21 samples.

Results

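Inhibitors of histone deacetylases (HDACs) move a set of genes in the same direction in many cell types, and 9 of these classical response genes were followed in PC-9 lung cancer cells. They were taken by symbol, 7 as genes known to rise with such drugs (CDKN1A, CDKN1C, H1F0, GSN, TXNIP, MT1X and CLU) and 2 as genes known to fall (TYMS and TXN). All 9 were listed among the 20111 genes of each of 2 experiments. RNA was sequenced from 21 libraries in 7 groups of 3, and gene levels are given as FPKM, a fragment level scaled by transcript length and library size, with an unknown depth. The untreated experiment held parental PC-9 cells and the EGFR-low and EGFR-high cells sorted from them, all harvested 24 h after seeding. The vorinostat experiment held EGFR-low and EGFR-high cells, treated from 24 h after seeding for 72 h with DMSO, the solvent, or with 1 µM vorinostat (SAHA), an HDAC inhibitor. The sorted cells were populations taken over 6 rounds from the 5 to 10% of cells with the lowest or highest surface EGFR, and not clones. All 7 groups share the PC-9 background with its activating EGFR deletion, whose last residue is given differently in the label of each library. The study's methods describe its biological replicates as experiments run separately in time. Limma p-values rest on the spread between libraries within groups, pooled over all groups of an experiment. The scatter of groups that are not compared therefore enters them too. The experiments were normalized separately and were never tested against each other, also where their levels stand side by side.

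Histone deacetylases remove acetyl groups from histone tails, which packs chromatin more tightly, and an inhibitor such as vorinostat raises acetylation within hours. The classical response joins arrest of the cell cycle through CDK inhibitors, a differentiation-type linker histone, cytoskeletal and stress genes, and lower expression of genes for DNA synthesis and redox defence. In EGFR-mutant lung cancer, HDAC inhibitors have been studied as partners of EGFR inhibitors, against which the level and signalling of EGFR itself are central.

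The labels of cell type were first compared with EGFR. In the untreated experiment EGFR stood at 60.2, 26.5 and 60.6 FPKM in EGFR-low cells, at 269, 161 and 243 FPKM in EGFR-high cells and at 261, 120 and 244 FPKM in parental cells. In the vorinostat experiment it stood at 43.3, 17.7 and 19.3 FPKM in EGFR-low DMSO libraries and at 83.3, 152 and 109 FPKM in EGFR-high DMSO libraries. EGFR-low libraries were below EGFR-high libraries in both experiments, by -2.23 (log2 fold change, SE 0.40, limma adjusted p = 0.011) untreated and by -2.13 (SE 0.35, limma adjusted p = 0.000569) in DMSO. All log2 fold changes are on the scale of log2(FPKM + 1). Of the 8 epithelial markers, all were listed, and their summed level was 1576 to 4045 FPKM over the 21 libraries, with EPCAM at 171 to 434 FPKM. DCN, a fibroblast marker, was listed at 0 in every library, and COL1A1, the most abundant of the 6 fibroblast markers, was at 5.87 FPKM or less.

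Of the 12 libraries of the vorinostat experiment, 4 stood apart from the rest of their groups. The first principal component, with 82.5% of the variance, separated the cell types, with most EGFR-low libraries between 61.6 and 66.7 and most EGFR-high libraries between -67.2 and -59.4. The DMSO libraries labelled EGFR-low replicate 1 (25.6) and EGFR-high replicate 3 (-26.3) lay between them. NKX2-1, a lung lineage transcription factor, stood at 25.6, 51.1 and 37.9 FPKM in the EGFR-low DMSO libraries and at 0.0859, 0.0397 and 11.1 FPKM in the EGFR-high DMSO libraries. EGFR-high DMSO replicate 3 therefore held a level of NKX2-1 between those of the cell types, and EGFR-low DMSO replicate 1 had the highest EGFR of its group. In the untreated experiment 6 of the 8 epithelial markers were tested. NKX2-1 was not among them, as it reached 1 FPKM in fewer than 3 untreated libraries. Whether the EGFR-low cells of the experiments were otherwise alike was not tested. Of 6 immune and endothelial markers 5 were listed, with sums of 31.0, 21.8 and 14.7 FPKM in EGFR-low DMSO and of 22.8, 34.8 and 30.8 FPKM in EGFR-high DMSO libraries and CD68 the most abundant. The T cell marker CD3E stood at 0.937 and 0.290 FPKM in the libraries between the cell types and was at 0 in 9 of the other 10. LYZ, a marker of myeloid cells, stood at 7.28 and 2.76 FPKM in these libraries and at 0.538 FPKM or less in the other 10, and PTPRC, which marks leukocytes, at 0.805 and 0.200 FPKM against 0.0524 FPKM or less. NKX2-1, CD3E, LYZ and PTPRC were singled out of the lists of markers after their values were seen.

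The other libraries that stood apart were replicate 1 of vorinostat in both cell types. On the second component, with 6.5% of the variance, EGFR-low vorinostat replicate 1 lay at -23.1 and EGFR-high vorinostat replicate 1 at -47.5, while the other 10 libraries lay between -0.0 and 13.1. Mitochondrially encoded genes made up 22.3% and 24.2% of summed FPKM in these vorinostat libraries and 7.27 to 18.6% in the other 10. Vorinostat replicates 2 and 3 lay beside the DMSO libraries of their cells on both components, with a correlation across genes of 0.9963 between them in EGFR-low cells. Their correlation with DMSO was as high there, at 0.9968 for replicate 2 with DMSO replicate 2 and 0.9961 for replicate 3 with DMSO replicate 3. Groups were kept as labelled, and many of the group fold changes are also given without 1 of these libraries. Whether these 4 libraries, and vorinostat replicates 2 and 3, carry the right labels cannot be told from the files. This limits what the counts with vorinostat, among them that no gene passed, and between the cells in DMSO mean. For PC-9 EGFR-low cells the study reports more EGFR protein with vorinostat and a loss of gene signatures of transforming growth factor beta. The signatures were for these cells with or without 1 µM vorinostat, which are the cells and the dose of the libraries here. EGFR was measured as protein. Neither measure was recomputed or set against the libraries here. EGFR itself stood at 19.7, 16.1 and 18.2 FPKM in EGFR-low and at 196, 101 and 207 FPKM in EGFR-high vorinostat libraries. The fold changes against DMSO were -0.44 (log2, SE 0.35, limma adjusted p = 1.0) and 0.52 (SE 0.35, limma adjusted p = 0.940), neither of which passed. The first rests on EGFR-low DMSO replicate 1, at 43.3 FPKM. The other EGFR-low DMSO libraries, at 17.7 and 19.3 FPKM, lay within the range of the vorinostat libraries. In EGFR-high cells vorinostat replicates 1 and 3 were above every DMSO library and replicate 2 was among them.

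**Figure D1:**
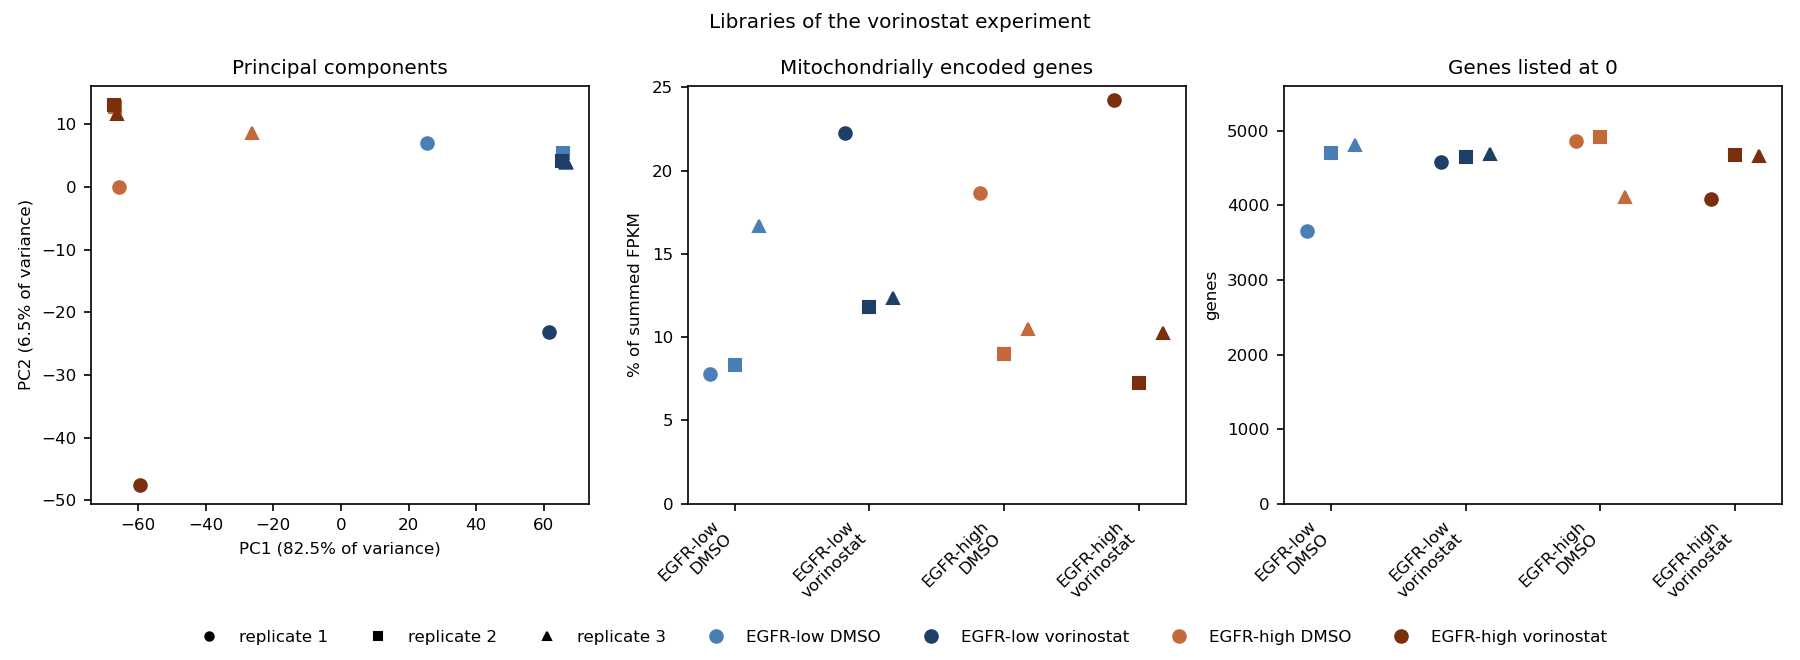
Position of the 12 libraries of the vorinostat experiment on the first and second principal components, share of summed FPKM from mitochondrially encoded genes (%) and number of genes listed at 0, by group, 1 point per library. EGFR-low DMSO replicate 1 and EGFR-high DMSO replicate 3 lie between the cell types at 25.6 and -26.3, and replicate 1 of vorinostat lies apart at -23.1 and -47.5 on the second component.

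The plot of the libraries shows that different libraries stand apart in each measure. The number of genes listed at 0 was lowest in EGFR-low DMSO replicate 1, at 3662, against 4700 and 4813 in the other DMSO libraries of these cells. The same library had 3 of 13 mitochondrially encoded genes listed at 0, where the other 20 libraries had none, so its mitochondrial share of 7.80% and its values of 0 may include failed estimates. EGFR-high vorinostat replicate 1 and EGFR-high DMSO replicate 3 followed with 4080 and 4117.

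The first question was whether the response genes moved with vorinostat. None of the 9 passed the limma test in either cell type, and no other gene did. In EGFR-low cells 0 of 9 response genes and 0 of 12236 tested genes (0%) had an adjusted p under 0.05, and 1 of 9 (CDKN1C) against 115 genes (0.94%) had an unadjusted p under 0.05. In EGFR-high cells the counts were 0 of 9 and 0 of 12236 (0%) by limma after adjustment, and 0 of 9 against 409 genes (3.34%) at an unadjusted p under 0.05. For the difference of the vorinostat effects between the cell types they were 0 of 9 and 0 of 12236 (0%), and 0 of 9 against 215 genes (1.76%) unadjusted. No response gene thus passed in any comparison with vorinostat. Vorinostat and DMSO libraries did not overlap for 1 of 9 response genes in EGFR-low cells, against 9.46% of all tested genes, and for 0 of 9 in EGFR-high cells, against 5.33%. The median log2 fold change of the 9 genes was 0.06 in EGFR-low cells, where that of all genes was -0.03, and 0.16 in EGFR-high cells, where that of all genes was -0.06. These medians pool genes listed to rise with TYMS and TXN, listed to fall. In each cell type 6 genes were above 0 and 3 below. Those below were CDKN1C, TYMS and TXN in EGFR-high and CDKN1C, GSN and TXN in EGFR-low cells. Several of these signs turned when 1 library was left out. Both comparisons of vorinostat use their own DMSO libraries, and the values below show that single libraries differed from DMSO by far more than the group fold changes.

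**Figure D2:**
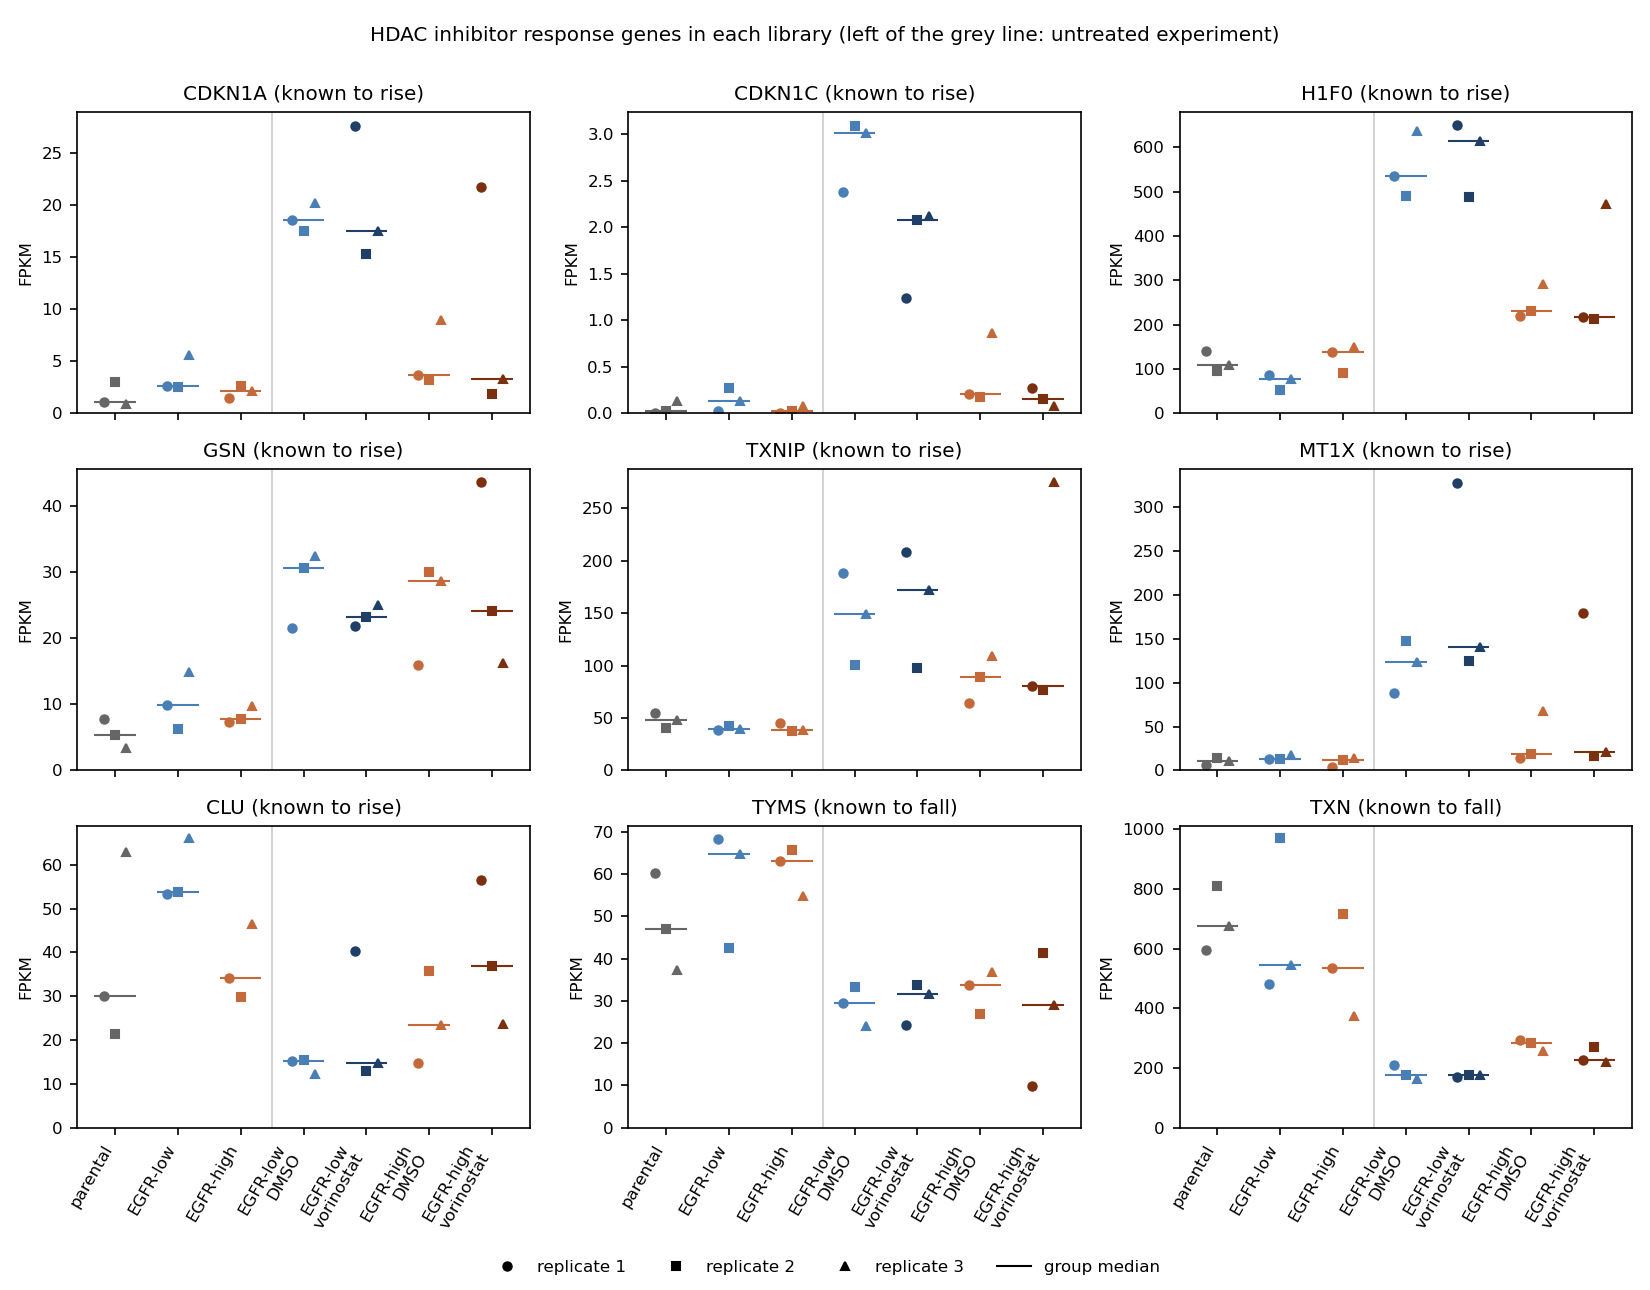
Level (FPKM) of the 9 HDAC inhibitor response genes in each of the 21 libraries, by group, with the group median as a line; groups left of the grey line belong to the untreated experiment, and the experiments were normalized separately. CDKN1A, MT1X, GSN and CLU each have their highest EGFR-high level in vorinostat replicate 1, at 21.7, 179, 43.5 and 56.4 FPKM, and TYMS its lowest, at 9.89 FPKM.

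The plot of the levels by library shows CDKN1A, CDKN1C, H1F0 and MT1X at different levels in the cell types in DMSO. Of the 54 vorinostat values, 25 lay within the range of the DMSO libraries of the same cells, 14 above and 15 below. This count has no share of all genes beside it, does not separate genes known to rise from those known to fall, and is a description only.

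CDKN1A encodes p21, an inhibitor of cyclin-dependent kinases, and is the best known gene to rise with HDAC inhibitors, through GC boxes bound by Sp1-type factors in its proximal promoter. In EGFR-high cells it stood at 3.62, 3.17 and 8.93 FPKM in DMSO and at 21.7, 1.79 and 3.25 FPKM in vorinostat. Replicate 1 of vorinostat was above every EGFR-high DMSO library, replicate 2 below all of them and replicate 3 among them. In EGFR-low cells CDKN1A stood at 18.6, 17.5 and 20.1 FPKM in DMSO and at 27.6, 15.3 and 17.5 FPKM in vorinostat. Again replicate 1 alone was above DMSO, and the others were at or below its lower end. The fold change was 0.16 (log2, SE 0.62, limma adjusted p = 0.975) in EGFR-high and 0.06 (SE 0.62, limma adjusted p = 1.0) in EGFR-low cells. Without vorinostat replicate 1 it turned to -0.74 and -0.18, and in EGFR-high cells it was -0.07 without DMSO replicate 2 and 0.56 without DMSO replicate 3.

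The promoter of CDKN1A is printed to show the GC boxes for which the gene is known as a response gene. RefSeq on GRCh38.p14 gave promoters for 6 of the 9 genes (not CDKN1C, H1F0 and CLU). The stretch is the 250 bases before the start, chr6:36678464-36678713 on the plus strand, 5′ to 3′. Capitals mark the 4 matches to GGGCGG on this strand or the other, both being searched, of which the last 2 share bases. Of 35116 starts, 42.6% held this motif in the same window, and a match is a description of the letters only.
CDKN1A promoter: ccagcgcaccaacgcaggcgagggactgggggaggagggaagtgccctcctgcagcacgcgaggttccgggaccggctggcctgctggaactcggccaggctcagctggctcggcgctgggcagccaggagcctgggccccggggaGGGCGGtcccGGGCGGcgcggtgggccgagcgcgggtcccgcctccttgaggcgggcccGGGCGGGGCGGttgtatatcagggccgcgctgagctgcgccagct

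CDKN1C encodes p57, a related inhibitor of cyclin-dependent kinases. It stood at 2.38, 3.09 and 3.01 FPKM in EGFR-low DMSO libraries and at 1.23, 2.08 and 2.12 FPKM in EGFR-low vorinostat libraries. Every vorinostat library was below every DMSO library, the direction opposite to the one for which the gene was listed. The fold change was -0.46 (log2, SE 0.20), with an unadjusted limma p = 0.0441, a limma adjusted p = 1.0 and a p = 0.1 by exact permutation (two-sided), which is the smallest p possible with 3 libraries a group. Without EGFR-low vorinostat replicate 1 the fold change was -0.30. In EGFR-high cells CDKN1C was near 0, at 0.204, 0.170 and 0.860 FPKM in DMSO and 0.273, 0.147 and 0.0724 FPKM in vorinostat. It passed the filter on low values (at least 1 FPKM in at least 3 libraries) through the EGFR-low libraries alone. Of the 8 CDK inhibitors none passed the limma test with vorinostat, and their median log2 fold change was -0.07 in EGFR-low and 0.06 in EGFR-high cells. In single libraries CDKN2D, picked after its values were seen, was at 12.5 FPKM in EGFR-low vorinostat replicate 1 against 3.48 to 6.02 FPKM in DMSO.

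H1F0 encodes histone H1.0, a linker histone that accumulates in resting and differentiating cells. Its level was high, at 535, 490.2 and 637 FPKM in EGFR-low DMSO and 651, 488 and 614 FPKM in EGFR-low vorinostat libraries. The groups overlapped almost fully. EGFR-high cells had 219, 231 and 291 FPKM in DMSO and 217, 213 and 472 FPKM in vorinostat. Here replicate 3 of vorinostat was high while replicates 1 and 2 were just below DMSO, and the level in replicate 3 came close to that of EGFR-low cells. The fold changes were 0.07 (log2, SE 0.27, limma adjusted p = 1.0) in EGFR-low and 0.19 (SE 0.27, limma adjusted p = 0.941) in EGFR-high cells, and in EGFR-high cells 0.37 without vorinostat replicate 1, 0.31 without DMSO replicate 3 and -0.19 without vorinostat replicate 3. Of 16 tested genes for linker and polyadenylated histones none passed the limma test with vorinostat, with a median of -0.06 in EGFR-low and -0.10 in EGFR-high cells. Histone genes have near-identical copies, so their assignment is uncertain.

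GSN encodes gelsolin, which severs and caps actin filaments. In EGFR-low cells it stood at 21.6, 30.6 and 32.4 FPKM in DMSO and at 21.8, 23.2 and 25.0 FPKM in vorinostat. All 3 vorinostat libraries lay between DMSO replicate 1, the library between the cell types, and the other DMSO libraries. In EGFR-high cells GSN stood at 15.9, 29.9 and 28.6 FPKM in DMSO and at 43.5, 24.1 and 16.2 FPKM in vorinostat, with replicate 1 above all others. The fold changes were -0.24 (log2, SE 0.32, limma adjusted p = 1.0) and 0.10 (SE 0.32, limma adjusted p = 0.972). Without EGFR-low DMSO replicate 1 the former was -0.42, and all 3 EGFR-low vorinostat libraries were below the other DMSO libraries. In EGFR-high cells the sign turned without DMSO replicate 1 (-0.18) or vorinostat replicate 1 (-0.27). None of 6 tested genes of the gelsolin family passed the limma test with vorinostat.

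TXNIP encodes an arrestin-type protein that binds thioredoxin and limits glucose uptake. In EGFR-high cells it stood at 64.0, 89.1 and 109 FPKM in DMSO and at 80.7, 76.3 and 275 FPKM in vorinostat. The level in replicate 3 was far above DMSO, 1.68 log2 units over the DMSO mean, and ranked 2 of 12236 genes in that library. This was the same library in which H1F0 was high, and it did not stand apart on the principal components. In EGFR-low cells TXNIP stood at 189, 100.2 and 149 FPKM in DMSO and at 208, 97.4 and 172 FPKM in vorinostat. The ranges were similar, slightly wider in vorinostat. The fold changes were 0.48 (log2, SE 0.46, limma adjusted p = 0.940) in EGFR-high and 0.10 (SE 0.46, limma adjusted p = 1.0) in EGFR-low cells. The first was -0.12 without EGFR-high vorinostat replicate 3 and 0.76 without replicate 1, and the second -0.13 without vorinostat replicate 1 and 0.31 without DMSO replicate 1.

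The TXNIP promoter is shown for its CCAAT boxes, through which NF-Y-type factors are known to act on this gene. It lies at chr1:145996580-145996829 on the minus strand, 5′ to 3′. Capitals mark the 2 matches to CCAAT on either strand, which was held by 32.0% of the 35116 windows. RefSeq lists another start of TXNIP, downstream of this one, and its window at chr1:145995745-145995994 held no match to CCAAT.
TXNIP promoter: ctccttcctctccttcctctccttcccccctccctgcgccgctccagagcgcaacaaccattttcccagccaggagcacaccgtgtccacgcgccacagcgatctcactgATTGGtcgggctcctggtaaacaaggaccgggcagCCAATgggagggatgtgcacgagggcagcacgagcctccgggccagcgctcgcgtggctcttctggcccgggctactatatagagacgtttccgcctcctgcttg

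TXN encodes thioredoxin, which keeps protein thiols reduced and is listed as a gene that falls. In EGFR-high cells it stood at 295, 284 and 257 FPKM in DMSO and at 226, 272 and 220 FPKM in vorinostat. Replicates 1 and 3 of vorinostat were below all DMSO libraries and replicate 2 was among them, with a fold change of -0.22 (log2, SE 0.13, limma adjusted p = 0.940). In EGFR-low cells TXN stood at 211, 175 and 162 FPKM in DMSO and at 171, 176 and 176 FPKM in vorinostat. The 3 vorinostat libraries were nearly equal and inside the DMSO range, with a fold change of -0.06 (log2, SE 0.13, limma adjusted p = 1.0), which turned to 0.05 without DMSO replicate 1. Of 18 genes of the thioredoxin system and its arrestins none passed the limma test with vorinostat, with medians of 0.0022 and -0.07.

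MT1X encodes a metallothionein, a small cysteine-rich protein that binds zinc and copper and is induced through metal response elements. In EGFR-low cells it stood at 88.7, 147 and 124 FPKM in DMSO and at 327, 125 and 140.4 FPKM in vorinostat. Levels in EGFR-high cells were lower, at 14.2, 18.5 and 67.4 FPKM in DMSO and at 179, 16.7 and 20.6 FPKM in vorinostat. In both cell types replicate 1 of vorinostat was above every DMSO library and the others were inside the DMSO range. The fold changes were 0.60 (log2, SE 0.80, limma adjusted p = 1.0) in EGFR-low and 0.59 (SE 0.80, limma adjusted p = 0.940) in EGFR-high cells. Without vorinostat replicate 1 they were 0.17 and -0.48, and without EGFR-high DMSO replicate 3 the second was 1.25.

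The wider list held metallothioneins with MTF1, the transcription factor that induces them, and SLC30A1, a zinc exporter. MT2A, chosen after its values were seen, stood at 636 FPKM in EGFR-low vorinostat replicate 1 against 242 to 305 FPKM in DMSO, and at 159 FPKM in EGFR-high vorinostat replicate 1 against 34.5 to 149.6 FPKM. Replicate 1 was above DMSO in both cells. MT1E stood at 166, 193 and 155 FPKM in EGFR-low DMSO and at 380.4, 180.1 and 186 FPKM in EGFR-low vorinostat libraries. It stood at 0.273, 0.252 and 59.9 FPKM in EGFR-high DMSO and at 11.7, 0.173 and 0 FPKM in EGFR-high vorinostat libraries. MT1E thus had its highest EGFR-high level in DMSO replicate 3, the library between the cell types, and was listed at 0 in all 9 untreated libraries. Of 8 tested genes of the list, 6 of them metallothioneins, 4 were at least 1 log2 unit above DMSO in replicate 1 of vorinostat in EGFR-low cells (median 0.83, all genes -0.09) and 4 in EGFR-high cells (median 1.07, all genes -0.17), where 1.01% and 2.31% of all genes were. In EGFR-high vorinostat replicates 2 and 3 none of the 8 was that much higher and 2 were that much lower in each (medians -0.48 and -0.29), and the medians by group were 0.37 in EGFR-low and 0.04 in EGFR-high cells. EGFR-high DMSO replicate 3 had all 6 metallothioneins at that distance above the other DMSO libraries (median of the 8 genes 1.55, all genes 0.07). Summed over the list with SLC30A1 and MTF1, levels were 547, 673 and 545 FPKM in EGFR-low DMSO, 1387, 638 and 642 FPKM in EGFR-low vorinostat, 77.8, 74.4 and 305 FPKM in EGFR-high DMSO and 390.4, 66.1 and 77.9 FPKM in EGFR-high vorinostat libraries. None of the 8 passed the limma test with vorinostat, and near-identical metallothionein copies make the assignment to single genes uncertain.

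The plot of the metallothioneins shows MT1A, MT1F and MT1H at lower levels with the same EGFR-high DMSO library high. Promoters were matched for 5 of 11 metallothionein genes, and those of MT1X and MT2A, the most abundant matched ones, are shown for their metal response element cores. These are 250 bases before the start, 5′ to 3′ on the plus strand, chr16:56682220-56682469 for MT1X and chr16:56608334-56608583 for MT2A. Capitals mark TGCACNC or TGCGCNC on either strand, 4 matches in MT1X, of which 1 shares bases with a GC box, and 7 in MT2A. Of the 35116 windows, 24.8% held at least 1 match.
MT1X promoter: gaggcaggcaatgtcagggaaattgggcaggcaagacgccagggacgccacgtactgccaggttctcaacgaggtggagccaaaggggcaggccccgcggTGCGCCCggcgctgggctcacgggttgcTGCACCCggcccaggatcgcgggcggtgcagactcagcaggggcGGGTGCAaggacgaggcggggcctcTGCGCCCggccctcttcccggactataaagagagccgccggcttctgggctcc
MT2A promoter: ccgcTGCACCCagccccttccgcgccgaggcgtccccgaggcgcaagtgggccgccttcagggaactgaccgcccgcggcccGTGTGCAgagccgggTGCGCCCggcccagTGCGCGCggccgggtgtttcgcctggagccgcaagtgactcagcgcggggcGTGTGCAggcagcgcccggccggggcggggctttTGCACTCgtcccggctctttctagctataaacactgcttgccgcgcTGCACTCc

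CLU encodes clusterin, a secreted chaperone that also restrains complement. In EGFR-low cells it stood at 15.2, 15.5 and 12.2 FPKM in DMSO and at 40.3, 12.8 and 14.8 FPKM in vorinostat. In EGFR-high cells it stood at 14.7, 35.8 and 23.4 FPKM in DMSO and at 56.4, 37.0 and 23.6 FPKM in vorinostat. Replicate 1 of vorinostat was the highest library in both cells, replicate 2 was also above DMSO in EGFR-high cells, and the rest overlapped. The fold changes were 0.45 (log2, SE 0.43, limma adjusted p = 1.0) and 0.64 (SE 0.43, limma adjusted p = 0.940). Without vorinostat replicate 1 they were -0.04 and 0.34. Of 6 tested secreted chaperones and complement regulators none passed the limma test with vorinostat.

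TYMS encodes thymidylate synthase, which makes the thymidine nucleotide for DNA, and is listed as a gene that falls. In EGFR-high cells it stood at 33.7, 26.8 and 36.9 FPKM in DMSO and at 9.89, 41.3 and 29.0 FPKM in vorinostat. Replicate 1 of vorinostat was the lowest library, replicate 2 the highest and replicate 3 among the DMSO libraries. In EGFR-low cells TYMS stood at 29.4, 33.3 and 24.1 FPKM in DMSO and at 24.4, 33.9 and 31.7 FPKM in vorinostat, and the groups overlapped. The fold changes were -0.47 (log2, SE 0.38, limma adjusted p = 0.940) in EGFR-high and 0.05 (SE 0.38, limma adjusted p = 1.0) in EGFR-low cells. Without EGFR-high vorinostat replicate 1 the former turned to 0.10. The difference between the cell types was 0.52 (log2, SE 0.54, limma adjusted p = 0.999) and turned to -0.05 without that library.

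Genes of deoxynucleotide synthesis and of proliferation were low in the same library as TYMS. In EGFR-high vorinostat replicate 1, 4 of 14 genes for thymidylate and deoxynucleotide synthesis, TYMS among them, and 6 of 18 proliferation genes were at least 1 log2 unit below the DMSO mean, with medians of -0.84 and -0.97 where that of all genes was -0.17 and 3.41% of all genes were that much lower. TK1, picked after its values were seen, was at 10.7 FPKM there against 22.3 to 39.9 FPKM in DMSO, and MCM5 at 14.1 FPKM against 34.8 to 48.0 FPKM. The summed level of the 18 proliferation genes was 751.1, 729 and 903 FPKM in EGFR-high DMSO and 401, 928 and 732 FPKM in EGFR-high vorinostat libraries, with CCNB1 the most abundant in the lowest of them. Vorinostat replicate 1 was thus the lowest of these EGFR-high libraries. In EGFR-low cells the sums were 941, 831 and 654 FPKM in DMSO and 891, 931 and 844 FPKM in vorinostat. Across the groups, 17 of 18 proliferation genes had a log2 fold change below 0 in EGFR-high cells (median -0.27) and 16 of 18 above 0 in EGFR-low cells (median 0.15), none of them passing the limma test. By library the medians were -0.97, 0.22 and -0.15 in EGFR-high vorinostat and 0.05, 0.19 and 0.09 in EGFR-low vorinostat, so the first of these counts rests largely on replicate 1. The mitochondrial share of 24.2% and these proliferation levels moved with the levels of CDKN1A, MT1X, CLU and TYMS in this library, and their part in the result was not tested. In bulk samples fewer cells of a type and less RNA per cell cannot be told apart.

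**Figure D3:**
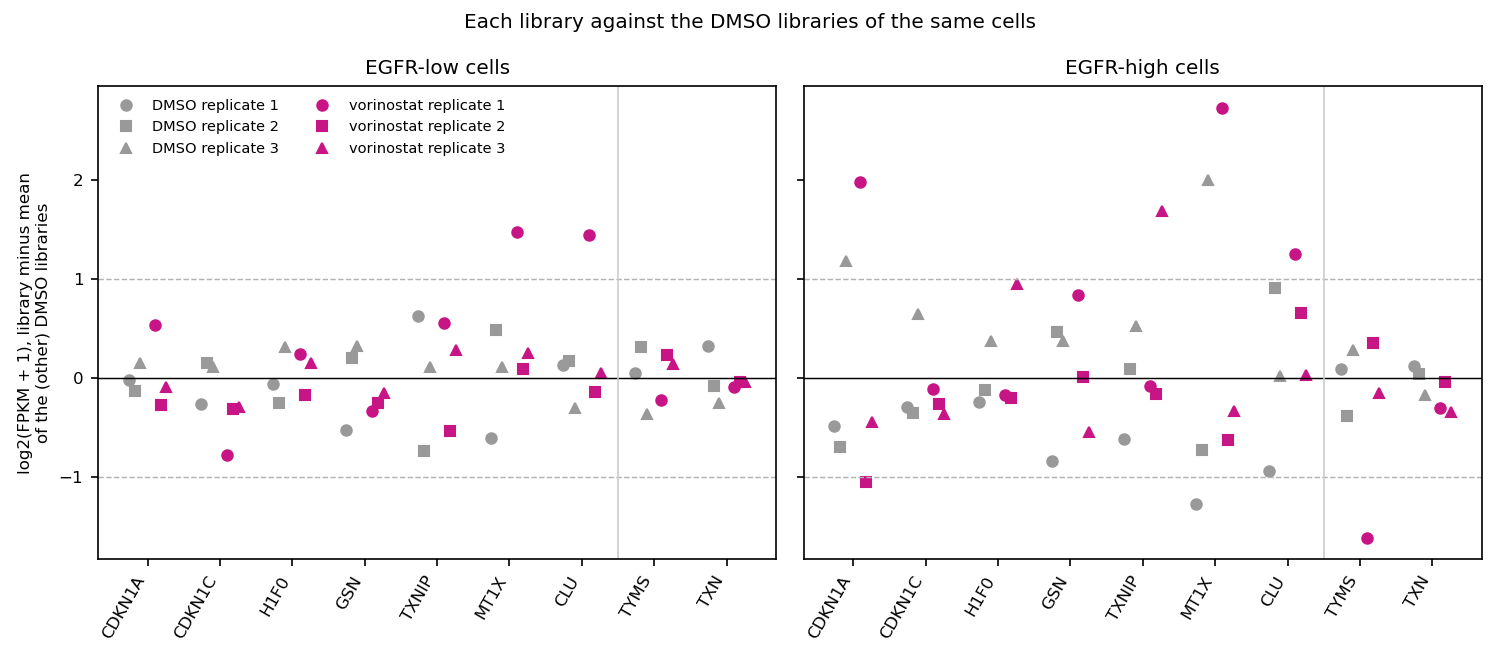
Difference on the log2(FPKM + 1) scale of each library from the mean of the DMSO libraries of the same cells (for a DMSO library, the other 2), for the 9 response genes; dashed lines mark 1 log2 unit up and down, and genes right of the grey line are known to fall. In EGFR-high vorinostat replicate 1, MT1X lies at 2.73, CDKN1A at 1.98, CLU at 1.25 and TYMS at -1.61.

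Each vorinostat library was also set against the DMSO libraries of its cells, with a difference of 1 log2 unit as the limit and no test, since 1 library has no spread. In EGFR-high vorinostat replicate 1, 3 of 9 response genes were higher (MT1X by 2.73, CDKN1A by 1.98 and CLU by 1.25), against 2.31% of all tested genes, and 1 of 9 was lower (TYMS by -1.61), against 3.41%. These 4 differences had the directions for which the genes were listed. Ranked among 12236 genes, MT1X was 3 from the top, CDKN1A 30 and CLU 146, and TYMS was 50 from the bottom. In EGFR-high vorinostat replicate 2, 0 of 9 were higher (0.0981% of all genes) and 1 was lower (CDKN1A by -1.05, 0.417%, and by -0.65 without EGFR-high DMSO replicate 3 as a reference). In EGFR-high vorinostat replicate 3, 1 of 9 was higher (TXNIP, 0.368%) and 0 were lower (0.441%), and without that reference library TXNIP was higher by 1.85 and H1F0 by 1.07. TXNIP thus differed in a library other than the one in which MT1X, CDKN1A, CLU and TYMS did.

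In EGFR-low vorinostat replicate 1, 2 of 9 response genes were higher (MT1X by 1.47 and CLU by 1.44), against 1.01% of all genes, and 0 were lower (2.01%). Ranked from the top, MT1X was 38 and CLU 41, and CDKN1A differed by 0.54. The mitochondrial share of 22.3% moved with MT1X and CLU in this library, as did CD68, the most abundant of the immune and endothelial markers, which was 0.88 above the DMSO mean, and their part in the result was not tested. CD3E was at 0 there, LYZ at 0.0495 FPKM and PTPRC at 0.0048 FPKM. The summed level of these markers was 36.1, 26.9 and 20.4 FPKM in EGFR-low vorinostat and 25.0, 27.6 and 21.3 FPKM in EGFR-high vorinostat libraries. The other EGFR-low vorinostat libraries had no response gene past the limit. In EGFR-low vorinostat replicate 2, 0 of 9 were higher (0.049%) and 0 lower (0.49%). In EGFR-low vorinostat replicate 3, 0 of 9 were higher (0.0327%) and 0 lower (0.474%). Among the other genes known to rise, 2 of 16 in EGFR-low and 1 of 16 in EGFR-high vorinostat replicate 1 were at least 1 log2 unit higher. Their medians were 0.15 and 0.20, and 1.01% and 2.31% of all genes were that much higher. Without drug, EGFR-high DMSO replicate 3 had 3 of these 16 that much higher (median 0.27), where 3.43% of all genes were. This count was above that of either vorinostat library, and so was the share of all genes. Among the other genes known to fall, 2 of 8 were that much lower in EGFR-high vorinostat replicate 1 (median -0.84, against 3.41% of all genes), while in EGFR-high vorinostat replicates 2 and 3 and in EGFR-low vorinostat replicate 1 0 of 8 were (medians 0.08, 0.22 and -0.02). By group, none of the other genes known to rise (16 tested) or fall (8 tested) passed the limma test with vorinostat, with medians of -0.09 and 0.06 in EGFR-low and of 0.13 and -0.17 in EGFR-high cells. DHRS2, a reductase gene among those known to rise, was picked after its values were seen. It stood at 534, 472 and 536 FPKM in EGFR-low DMSO and at 819, 540 and 608 FPKM in EGFR-low vorinostat libraries, all 3 of the latter above DMSO, with a fold change of 0.33 (log2, SE 0.28, limma adjusted p = 1.0). Most of it came from replicate 1, the vorinostat libraries being 0.67, 0.07 and 0.24 above the DMSO mean. In EGFR-high cells DHRS2 stood at 106, 111 and 229 FPKM in DMSO and at 86.9, 132 and 138 FPKM in vorinostat, and the groups overlapped.

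DMSO libraries set against the other 2 of their group give the spread without drug. In EGFR-low cells, 0 of 9 response genes were past the limit in any DMSO library, against 3.16% of genes higher and 0.523% lower in replicate 1, 0.204% and 1.11% in replicate 2, and 0.106% and 1.21% in replicate 3. EGFR-high DMSO replicate 3 had 2 of 9 higher (MT1X by 1.99 and CDKN1A by 1.18, 3.43% of all genes) and 0 lower (0.0817%). In EGFR-high DMSO replicate 1, 0 of 9 were higher (0.572%) and 1 was lower (MT1X, 1.26%), and in replicate 2, 0 were higher (0.245%) and 0 lower (1.31%). MT1X and CDKN1A were therefore past the limit in a DMSO library as well as in vorinostat. Without EGFR-high DMSO replicate 3 as a reference, vorinostat replicate 1 stood higher by 3.39 for MT1X, 2.37 for CDKN1A and 1.26 for CLU and differed by -1.51 for TYMS. Without EGFR-low DMSO replicate 1, MT1X and CLU in EGFR-low vorinostat replicate 1 stood higher by 1.27 and 1.49.

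Of the 9 response genes, 5 passed between the cell types in DMSO, with no HDAC inhibitor present, a share near the 51.8% of all genes. CDKN1A, CDKN1C, H1F0 and MT1X were higher in EGFR-low cells, and TXN was lower there. CDKN1A differed by 1.77 (log2, SE 0.62, limma adjusted p = 0.0305), with EGFR-low DMSO libraries at 17.5 to 20.1 FPKM and EGFR-high ones at 3.17 to 8.93 FPKM. H1F0 differed by 1.16 (SE 0.27, limma adjusted p = 0.00379). CDKN1C differed by 1.47 (SE 0.20, limma adjusted p = 0.000329), but it entered the test only through the EGFR-low libraries in which it is high, so its call is bound to the filter and is no support. The metallothionein MT1X differed by 2.12 (SE 0.80, limma adjusted p = 0.0433) and TXN, thioredoxin, by -0.61 (SE 0.13, limma adjusted p = 0.0019). Each of these genes had the same direction in all 3 libraries against all 3, with no overlap. By limma 5 of 9 response genes passed, where 51.8% of 12236 genes did, and 5 of 9 did not overlap, where 69.3% of genes did not either, so these shares, which count CDKN1C, are close to or below those of all genes. GSN (0.21, and 0.50 without both DMSO libraries between the cell types), TXNIP (0.72), CLU (-0.67) and TYMS (-0.16) did not pass, with limma adjusted p from 0.205 to 0.743. The median of the 9 genes was 0.72 and that of all genes 0.12.

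CDKN1A and MT1X kept their direction in this comparison under all 16 alternatives in processing, at 1.25 to 2.17 and 1.7 to 2.98. Their calls were lost in several of these. Leaving out any EGFR-low DMSO library or EGFR-high DMSO replicate 1 or 2 ended both calls, with limma adjusted p of 0.0569, 0.0652, 0.0783, 0.0923 and 0.103 in that order for CDKN1A and of 0.0537, 0.115, 0.0985, 0.15 and 0.127 for MT1X. MT1X had a limma adjusted p of 0.0513 with the replicate block, where 4 response genes passed, and of 0.0625 with median-of-ratios scaling. Without both DMSO libraries that lay between the cell types, an alternative chosen after seeing the data, 5 response genes passed, with CDKN1A at 2.17, MT1X at 2.98, H1F0 at 1.31 and TXN at -0.78. NKX2-1 and the low-level markers CD3E, LYZ and PTPRC, though not CD68 or the sum of the immune list, moved with MT1X and CDKN1A in EGFR-high DMSO replicate 3, and their part in the result was not tested.

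The lists around the response genes were counted in the same comparison, in which 3807 genes were higher and 2527 lower in EGFR-low cells, 51.8% of the 12236 tested. The shares called among CDK inhibitors, thioredoxin system genes and the other genes known to rise were near it. Of 8 CDK inhibitors 3 were higher and 2 lower in EGFR-low cells by limma (median 0.26), among them CDKN2A by -1.27 (SE 0.16, limma adjusted p = 0.000327). Of 16 histone genes 10 were higher and 0 lower (median 1.11), with HIST1H1C, a linker histone, differing by 2.22 (SE 0.34, limma adjusted p = 0.000443). Linker histones bind the DNA that enters and leaves the nucleosome. All 6 tested metallothioneins were higher, and MTF1 and SLC30A1, the other tested genes of their list, were lower (median of the 8 genes 1.80), with MT1E differing by 5.22 (SE 1.32, limma adjusted p = 0.00631). MT1A, MT1E, MT1H and SCIN, like CDKN1C, would not have passed the filter on low values without the EGFR-low libraries, so their calls are bound to the filter and are no support. MT1E, unlike CDKN1C, also reached 1 FPKM in EGFR-high DMSO replicate 3 and EGFR-high vorinostat replicate 1. Of 18 thioredoxin system genes 3 were higher and 5 lower (median -0.14), with TXNRD1, the cytosolic thioredoxin reductase, differing by -1.38 (SE 0.27, limma adjusted p = 0.00157). TXNRD2, the mitochondrial one, differed in the other direction, by 1.67 (SE 0.23, limma adjusted p = 0.000329). Of 6 gelsolin family genes 1 was higher and 3 lower, with SCIN, another actin-severing protein, differing by 3.72 (SE 0.67, limma adjusted p = 0.000925). The genes named here were chosen after their values were seen. Of 14 genes for thymidylate and deoxynucleotide synthesis 2 were higher and 0 lower, of 6 secreted chaperones and complement regulators 4 were higher and 1 lower, and of 18 proliferation genes 1 was higher and 2 lower. Of the other genes known to rise with HDAC inhibitors, 7 of 16 were higher and 2 lower, and of those known to fall, 1 of 8 was higher and 1 lower. Median-of-ratios scaling moved the median of all genes in this comparison by -0.12, to 0.0069, and the 5 response genes kept their direction under it.

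In untreated cells, 24 h after seeding, none of the response genes passed the limma test between any pair of groups without the replicate block. With the block, H1F0 passed between EGFR-low and EGFR-high cells (limma adjusted p = 0.0198). CDKN1C was at 0.272 FPKM or less in all 9 libraries and was not tested, which left 8. Between EGFR-low and EGFR-high cells 0 of 8 passed, where 431 of 11305 genes did (3.81%), and 2 of 8 (H1F0 and CLU) did not overlap, where 20.6% of genes did not. Of this pair, H1F0 was on the lower side in EGFR-low cells and CLU on the higher. Between EGFR-low and parental cells 0 of 8 passed, where 181 genes did (1.6%), and 1 of 8 (H1F0) did not overlap, where 17.1% did not. Between EGFR-high and parental cells 0 of 8 passed, where 8 genes did (0.0708%), and 0 of 8 did not overlap, where 16.2% did not. The median log2 fold change of the 8 genes was 0.25, 0.37 and 0.10 in these comparisons, where that of all genes was -0.03, 0.06 and 0.07.

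H1F0 stood at 141, 94.7 and 109 FPKM in untreated parental, at 86.3, 52.6 and 77.3 FPKM in EGFR-low and at 138, 91.4 and 149 FPKM in EGFR-high libraries. EGFR-low cells were thus the lowest group, below every library of the others. The fold change of EGFR-low against EGFR-high cells was -0.80 (log2, SE 0.29, limma adjusted p = 0.227), and with the replicate block the limma adjusted p was 0.0198. Equal replicate numbers were correlated in this comparison, but replicate 1 was more so with another number (0.624 against 0.343). Against parental cells it was -0.67 (SE 0.29, limma adjusted p = 0.322). In DMSO the direction between the sorted cells was the opposite.

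CLU stood at 53.4, 53.8 and 66.1 FPKM in untreated EGFR-low libraries, at 34.2, 29.8 and 46.5 FPKM in EGFR-high libraries and at 30.1, 21.3 and 62.8 FPKM in parental libraries. Each EGFR-low library was above each EGFR-high library, while parental replicate 3 lay within the EGFR-low range, and the fold change of EGFR-low against EGFR-high cells was 0.65 (log2, SE 0.36, limma adjusted p = 0.509). CDKN1A stood at 1.104, 3.02 and 0.850 FPKM in parental, 2.63, 2.46 and 5.55 FPKM in EGFR-low and 1.48, 2.62 and 2.09 FPKM in EGFR-high libraries. EGFR-low replicate 3 was the highest, and the groups overlapped. GSN was lowest in parental cells, at 7.76, 5.29 and 3.31 FPKM, against 9.84, 6.18 and 14.9 FPKM in EGFR-low and 7.32, 7.73 and 9.67 FPKM in EGFR-high cells. Parental replicate 1 lay within both other groups. The fold changes against parental cells were 0.80 (SE 0.34, limma adjusted p = 0.305) for CDKN1A and 0.80 (SE 0.34, limma adjusted p = 0.307) for GSN in EGFR-low cells. Over the alternatives in processing they ranged from 0.36 to 1.16 for CDKN1A and from 0.51 to 1.09 for GSN. EGFR-low replicate 3 had the highest level of both genes.

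Among the other genes in untreated cells, MT1X stood between 3.66 and 17.0 FPKM, TXNIP between 37.3 and 55.0 FPKM, TYMS between 37.3 and 68.4 FPKM and TXN between 374 and 969 FPKM, with overlap of all 3 groups. Of the lists, few genes passed. Between EGFR-low and EGFR-high cells, 1 of 18 thioredoxin system genes and 1 of 4 secreted chaperones and complement regulators did. So did 1 of 14 other genes known to rise and 1 of 9 known to fall, where 3.81% of all genes did. Against parental cells, EGFR-low cells had 1 of 14 known to rise and 1 of 9 known to fall, where 1.6% of all genes passed. GLRX counts both as a thioredoxin system gene and as one known to rise. GLRX, glutaredoxin, and CD55, a complement regulator, were higher in EGFR-low cells against EGFR-high cells, by 1.97 (SE 0.35, limma adjusted p = 0.0099) and 1.38 (SE 0.26, limma adjusted p = 0.0123). BMF, an apoptosis activator of the BCL2 family and one of the other genes known to rise with HDAC inhibitors, was higher in EGFR-low than in parental cells by 1.36 (SE 0.23, limma adjusted p = 0.0137). TERT, the catalytic subunit of telomerase and one of the other genes known to fall, was higher in EGFR-low cells as well, by 2.31 (SE 0.31, limma adjusted p = 0.00195) against EGFR-high and by 2.39 (SE 0.31, limma adjusted p = 0.00293) against parental cells. The calls of TERT and BMF are bound to the filter on low values, which they passed only through the EGFR-low libraries, and are no support, with TERT at 4.69 to 13.0 FPKM there and at 0.540 to 1.26 FPKM in the others. These genes were chosen after their values were seen.

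Across all 7 groups the order of the levels differed among the genes, and it is a description, since the experiments were normalized separately. By group median, CDKN1A, CDKN1C, H1F0 and MT1X were highest in the EGFR-low DMSO and vorinostat groups, which overlapped each other for all of them but CDKN1C, then in the EGFR-high DMSO and vorinostat groups, which overlapped each other, and lowest in the untreated groups. Untreated EGFR-low libraries overlapped the EGFR-high DMSO libraries for CDKN1A, CDKN1C and MT1X, while for H1F0 every untreated library was below every library of the vorinostat experiment. The untreated groups had the highest medians of TXN and TYMS, and for TXN every untreated library was above every library of the vorinostat experiment. For TXNIP every untreated library was below every library of the vorinostat experiment, and for GSN likewise. CLU had no such order, with medians from 14.8 FPKM in EGFR-low vorinostat to 53.8 FPKM in untreated EGFR-low cells.

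The genes whose levels were most like those of a response gene were found over the 12 libraries of the vorinostat experiment by Pearson r, as a description. For most of these genes the points split by cell type. The highest r was with ANKRD22 (0.986) and FN1 (0.979) for CDKN1A, with SLC28A3 (0.992) and SOX21 (0.989) for CDKN1C, and with PLEKHG1 (0.99) and TSC22D3 (0.988) for H1F0. For MT1X it was with FN1 (0.985) and SESN3 (0.975), and for TXN with NDUFS5 (0.983) and HIAT1 (0.982). FN1 thus came up for both CDKN1A and MT1X. Lower values were found for GSN, with STX3 (0.904) and BICD2 (0.841), for TXNIP, with ERN1 (0.944) and PHIP (0.891), and for CLU, with PRCP (0.927) and TMEM158 (0.927). TYMS was most like NUCKS1 (0.959) and DPY19L4 (0.953).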

How the data were processed

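Polyadenylated RNA of 21 PC-9 libraries in 7 groups of 3 was analysed from the FPKM values deposited by the authors, made, per the submitters' processing notes, with STAR 2.5.1b and Cufflinks 2.2.1 on hg19. The unit was inferred from the values, which the naming also calls counts. Depth is unknown, so no counting interval is given and values of 0 are described as listed at 0. Groups follow the labels. The response genes and the gene lists were chosen with earlier results of these data known.

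Tested were the 11305 (untreated) and 12236 (vorinostat) genes that reached 1 FPKM in 3 or more libraries. Log2(FPKM + 1) was fitted per experiment with limma 3.58.1 (lmFit, eBayes with trend) in R 4.3.3, with 1 mean per group and Benjamini-Hochberg adjustment over all genes tested, with a threshold of 0.05. The fit was also run on simulated data, but no outcome is given here, so nothing rests on it. Single libraries were compared with the mean of the DMSO libraries of their cells, with no test. Figures were drawn with matplotlib 3.10.9, and tables were handled with pandas 2.3.3 and numpy 2.4.6 in Python 3.11.15, and exact permutations of single genes were enumerated in R.

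Replicate numbers were checked for pairing by the correlation across genes of deviations from the group mean. For equal numbers it was 0.267, 0.302 and 0.329 for vorinostat in EGFR-low cells and 0.343, 0.73 and 0.689 for untreated EGFR-low with EGFR-high cells, and these were treated as paired in the replicate block, although replicate 1 of the latter was correlated more with another number (0.624). It was 0.0597, 0.189 and -0.143 for vorinostat in EGFR-high cells, 0.251, -0.207 and 0.285 for the sorted cells in DMSO, 0.587, 0.416 and -0.092 for untreated EGFR-low with parental cells, and 0.434, 0.757 and -0.00229 for untreated EGFR-high with parental cells.

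Named were the 9 response genes, EGFR, up to 3 called genes per list by size of log2 fold change in each vorinostat comparison (none were called) and the 2 genes most like each response gene. Cell type markers came from lists fixed beforehand, from which EPCAM, the most abundant gene of a list and a marker at 0 were named; other names are said to be chosen after their values were seen. Alternatives were pseudocounts of 0.1 and 5, no filter, a filter of 5 FPKM, median-of-ratios scaling, quantile normalization, the compared groups alone, the replicate block, no trend, and leaving out each library.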

Additional observations from a re-analysis of the deposited data

Results flagged for a closer look

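H1F0, the linker histone gene, had opposite directions between EGFR-low and EGFR-high cells in the experiments. Its log2 fold change was -0.8 in untreated cells, which did not pass the limma test (adjusted p = 0.227, and 0.0198 with the replicate block), with all 3 EGFR-low libraries below all 3 EGFR-high libraries, and 1.16 in DMSO, which passed (limma adjusted p = 0.00379), with all 3 EGFR-low libraries above. The difference between the experiments was not tested, since they were normalized separately and differ in time in culture and in solvent. The sorted cells also differed in far more genes in DMSO, where 51.8% of tested genes passed, than untreated, where 3.81% did. What goes with the opposite directions of H1F0 was not tested.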

How the results depend on the processing

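With vorinostat, 0 of 12236 genes passed the limma test in either cell type or for their difference, against 115, 409 and 215 at an unadjusted p under 0.05. With no filter on low values, 1 gene passed in EGFR-low cells and 1 for the difference, neither of them a response gene, and 0 did with the replicate block.

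The log2 fold changes of several response genes turned sign when 1 library was left out, and the cause was not tested. In EGFR-low cells the ranges over the libraries left out were -0.18 to 0.22 for CDKN1A, -0.0093 to 0.20 for H1F0, -0.15 to 0.42 for TXNIP, -0.042 to 0.75 for CLU, -0.072 to 0.19 for TYMS and -0.14 to 0.050 for TXN (also 0.050 without both DMSO libraries between the cell types, an alternative chosen after seeing the data). In EGFR-high cells they were -0.74 to 0.77 for CDKN1A, -0.19 to 0.39 for H1F0, -0.27 to 0.42 for GSN, -0.12 to 0.80 for TXNIP, -0.48 to 1.25 for MT1X and -0.88 to 0.10 for TYMS. The difference of the effects on TYMS ranged from -0.053 to 0.93, and GSN between the sorted cells in DMSO from -0.073 to 0.38.

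In DMSO, H1F0 and TXN passed under all 16 alternatives, with limma adjusted p up to 0.0191 and 0.0122. The log2 fold change of CDKN1C, which entered the test through the EGFR-low libraries alone, depended on the pseudocount, from 0.53 with 5 to 2.76 with 0.1. CDKN1A lost its call in 6 of 16 alternatives (limma adjusted p 0.00447 to 0.103) and MT1X in 8 of 16 (0.0137 to 0.15). TXNIP, CLU and TYMS passed in none of the 16. Their log2 fold changes ranged from 0.51 to 0.97, from -0.98 to -0.36 and from -0.29 to -0.040. The number of response genes called was 3 with no filter, 3 to 5 with 1 library left out and 4 with the replicate block, where 6789 genes passed.

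Of the untreated comparisons, EGFR-low against EGFR-high cells had 660 genes with no filter, 206 with a filter of 5 FPKM, 965 with the replicate block (1 response gene, H1F0) and 174 to 286 with 1 library left out. EGFR-low against parental cells had 331, 82 and 525 in the same order, 107 with the compared groups alone, and 33 to 254 with 1 library left out. EGFR-high against parental cells had 15 with no filter, 3 with a filter of 5 FPKM, 2 with the compared groups alone, 9 with the replicate block and 2 to 8 with 1 library left out. A filter and fewer libraries change how many genes and samples enter the fit. Quantile normalization moved the median of all genes in the last comparison by -0.11, and dropping the filter moved that between the sorted cells in DMSO by -0.11. Depth is unknown, which limits what can be said of CDKN1C and of metallothioneins listed at 0.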
